A study of Homo sapiens with 12 samples.

Results

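Leukocyte integrins and their ligand ICAM1 were followed by RNA sequencing in OCI-AML3, an established human acute myeloid leukaemia cell line. The 10 genes were chosen by symbol from the 54628 genes of the count table: the alpha chains ITGAL, ITGAM, ITGAX, ITGA4, ITGA5 and ITGA6, the beta chains ITGB1, ITGB2 and ITGB7, and ICAM1. All 10 passed the filter on low counts and were among the 15173 genes tested. Cells were treated for 24 h in 4 groups of 3 libraries: Comb (ABT199 plus ERKi), ERKi (labelled compound 27, known here only by that code), ABT199 (venetoclax, an inhibitor of the survival protein BCL2) and DMSO, the solvent control. All groups are of the same line, and the doses, not given in the sources used here, are unknown. The series title concerns ERK1/2 inhibition and resistance of this leukaemia to venetoclax. Its replicates are not stated to be separate cultures, so p-values measure the spread between these libraries, which may be technical.

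Integrins are receptors made of an alpha and a beta chain that bind matrix or other cells, and neither chain reaches the surface in quantity without a partner. On leukocytes, ITGB2 (CD18) pairs with ITGAL (CD11a) to form LFA-1, with ITGAM (CD11b) to form the complement receptor Mac-1, and with ITGAX (CD11c). ITGA4 pairs with ITGB1, giving a receptor for VCAM1 and fibronectin, or with ITGB7, giving the gut-homing receptor for MADCAM1, while ITGA5 and ITGA6 with ITGB1 bind fibronectin and laminin. ICAM1 on neighbouring cells is the ligand of LFA-1 and Mac-1, and in many cells its gene is induced by NF-kB. Myeloid precursors carry LFA-1 and ITGA4 early and gain ITGAM and ITGAX as they mature.

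Promoter sequences were available from RefSeq (GRCh38.p14) for 7 of the 10 genes, with 9 annotated starts. The 250 bases before the start are shown for ITGB7 and ITGAM, the members with the largest and the next largest rise with ERKi, and for ICAM1, whose pattern over the groups was unlike theirs. The windows are chr12:53207252-53207501 (minus strand) for ITGB7, chr16:31259725-31259974 (plus strand) for ITGAM and chr19:10270870-10271119 (plus strand) for ICAM1. Each runs 5′ to 3′ on the gene's strand, and capitals mark every match, on either strand, to the motifs named after them.
ITGB7: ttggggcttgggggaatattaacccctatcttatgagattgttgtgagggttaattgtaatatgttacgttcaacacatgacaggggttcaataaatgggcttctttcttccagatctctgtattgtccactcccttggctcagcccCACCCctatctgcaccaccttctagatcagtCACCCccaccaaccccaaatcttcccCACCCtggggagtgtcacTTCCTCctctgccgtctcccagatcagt
ITGAM: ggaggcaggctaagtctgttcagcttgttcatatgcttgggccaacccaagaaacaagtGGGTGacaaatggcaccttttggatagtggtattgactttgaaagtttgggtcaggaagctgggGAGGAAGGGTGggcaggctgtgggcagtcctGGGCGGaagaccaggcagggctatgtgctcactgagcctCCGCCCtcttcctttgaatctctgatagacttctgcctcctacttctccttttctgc
ICAM1: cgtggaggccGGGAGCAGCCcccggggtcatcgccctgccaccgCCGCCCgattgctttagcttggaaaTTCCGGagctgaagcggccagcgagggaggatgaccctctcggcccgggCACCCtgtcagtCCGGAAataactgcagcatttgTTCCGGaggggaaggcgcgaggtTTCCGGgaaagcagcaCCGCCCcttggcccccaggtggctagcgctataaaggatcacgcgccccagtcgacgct
The motifs searched were GAGGAA (PU.1 core), GGGCGG (SP1 core), CCGGAA (ETS), CACCC (KLF core), TGTGGT (RUNX), TGANTCA (AP-1) and an NF-kB motif, and in the 9 windows no match overlapped one of another motif. The ITGB7 window held 3 KLF cores and 1 PU.1 core, that of ITGAM 2 KLF cores, 1 PU.1 core and 2 SP1 cores, and that of ICAM1 4 ETS, 2 SP1, 1 KLF and 1 NF-kB match. The shares over all promoters are for the same 250 bases of each start, while ITGA6 and ITGB1, with 2 starts each, count where either window matched. The KLF core was in a window of 7 of the 7 genes and in 54.7% of all 35116 promoters, the SP1 core in 5 genes and 42.6%, and the PU.1 core in 3 genes and 23.6%. ETS and NF-kB matches were in 3 genes each and in 14.5% and 22.6% of all promoters, RUNX in 1 gene and 3855 of the promoters, and AP-1 in 0 genes and 6.6%. A match is only a run of letters in these windows, and binding sites with other letters, of NF-kB too, were not searched for.

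The libraries held 19199296 to 21275065 counts each. In DMSO replicate 1 gene counts differed from those of its fellow controls (chi-square over degrees of freedom 17.93 and 16.91, against 2.34 to 5.52 within all other pairs of a group), so member counts are given below without it too. The line's myeloid markers were present: CD33, ANPEP, SPI1, MPO, CSF3R, CEBPA and CD68 were all tested, although MPO held only 18 to 63 counts a library. Their summed level was 1780 to 1820 CPM in Comb, 1590 to 1640 in ERKi, 774 to 825 in ABT199 and 803 to 963 in DMSO libraries. In ERKi against DMSO 6 were called higher and MPO lower (log2 -0.78) by the edgeR test given below, where 69.7% of all genes were called. T cell markers (CD3D, CD3E, CD3G, CD2) summed to at most 0.101 CPM and endothelial markers (CDH5, TEK, VWF, KDR) to at most 0.152 in any library, with CD3D, CD3G, MS4A1 and CDH5 listed at 0 in each. The NK cell marker NCAM1 was present, at 75.32 CPM in Comb, 150.4 in ERKi, 192.3 in ABT199 and 201.5 in DMSO libraries. The other NK cell markers were not: NCR1 had 0 counts in each library and KLRD1 at most 2. Fibroblast markers (COL1A1, COL1A2, COL3A1, PDGFRB) summed to 2.1 to 2.27 CPM in Comb, 10.3 to 24.4 in ERKi, 12.9 to 23.6 in ABT199 and 6.23 to 34.6 in DMSO libraries. In such bulk samples, fewer cells of a type and less RNA per cell cannot be told apart.

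In DMSO-treated cells the beta chain ITGB2 was the most abundant member per length of exon and ITGAX the least. Levels between genes are given as CPM (counts over the TMM-scaled library total) per kb of exon of the basic GENCODE 29 transcripts, mean ± SD (n = 3). In DMSO libraries ITGB2 stood at 164.5 ± 15 and ITGB1 at 73.38 ± 3.12 CPM per kb. ITGA5 followed at 46.7 ± 2.87, ITGA4 at 38.29 ± 4.49 and ITGAL at 32.71 ± 1.7 CPM per kb, so each of these 3 alpha chains was below ITGB1. ITGB7 stood at 3.535 ± 0.436, ITGA6 at 1.681 ± 0.11, ICAM1 at 1.356 ± 0.278, ITGAM at 0.3641 ± 0.0525 and ITGAX at 0.2654 ± 0.0537 CPM per kb. The libraries of ITGA4 and ITGAL overlapped in this order, as did those of ITGA6 and ICAM1 and those of ITGAM and ITGAX. With exons of all GENCODE transcripts ITGAL (26.34 CPM per kb) came before ITGA4 (22.32), and the other places stayed.

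ERKi against DMSO asks what ERK inhibition alone does, and 9 of 10 members passed the test at an adjusted p under 0.05 (edgeR's quasi-likelihood test with Benjamini-Hochberg adjustment), 7 higher and 2 lower. Among all 15173 genes 69.7% were called, 34.5% higher and 35.2% lower, so being called does not set the members apart from the rest of the transcriptome. No member's groups overlapped (10 of 10, and 71.1% of all genes). The members had a median log2 fold change of 0.6, and all genes tested one of 0.01. Without DMSO replicate 1 there were again 7 higher and 2 lower. All 6 alpha chains and ITGB7 rose, whereas ITGB2 and ITGB1 fell.

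**Figure D1:**
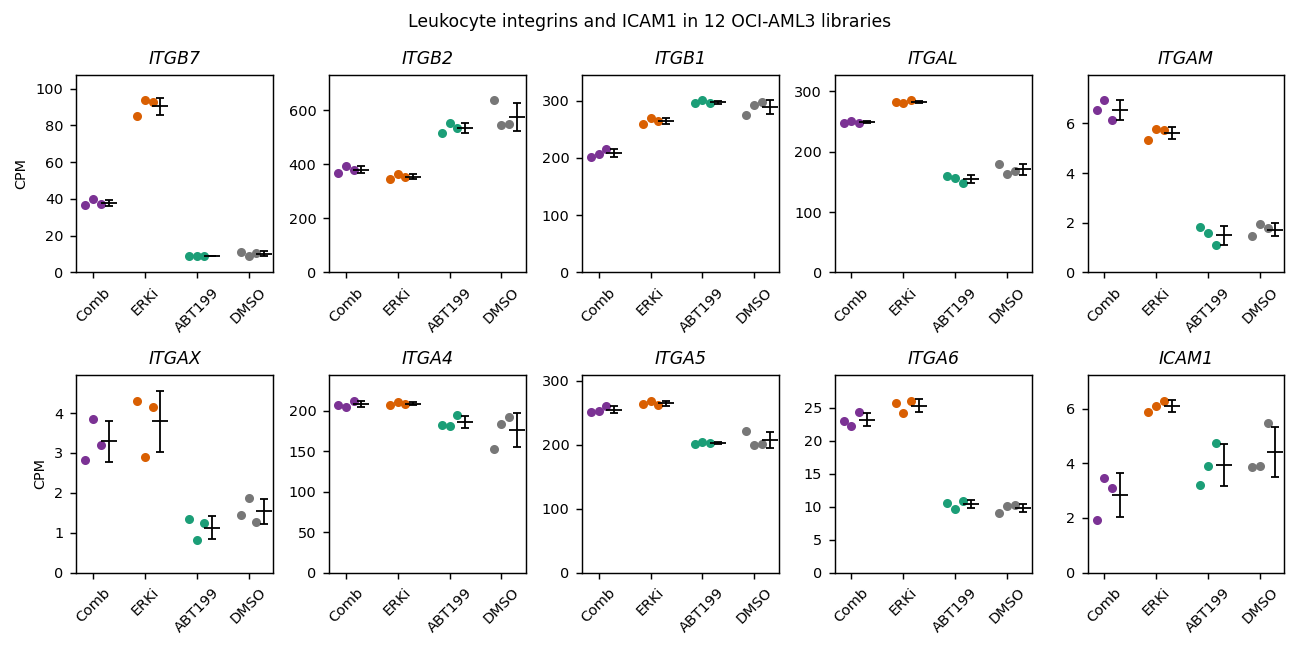
Level of each gene in CPM (y axis, from 0) in the 12 libraries, with groups along the x axis; points are libraries in order of replicate, and the bar beside them is the mean ± SD (n = 3). ITGB7 is near 90 CPM in ERKi libraries, near 38 in Comb and near 10 in the others, while ITGB2 is lower in Comb and ERKi than in ABT199 and DMSO libraries.

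The beta chains moved in different directions. ITGB7, the partner of ITGA4 and ITGAE, had 84.94, 93.66 and 92.68 CPM in ERKi libraries against 11.07, 8.713 and 10.62 CPM in DMSO libraries. The groups were far apart, and ITGB7 rose 8.92-fold (log2 3.16, SE 0.078, adjusted p = 5.38e-15), more than 98.9% of the genes tested. Its gene (chromosome 12, 53191318 to 53207307, minus strand) shares 1886 exon bases with ZNF740, a zinc finger gene on the other strand, and the strand setting of the counting was not stated by any source used. ZNF740 stood at 97.6 CPM in ERKi and 75.4 CPM in DMSO libraries, at 0.37 on the log2 scale (SE 0.049), and its part in the ITGB7 value was not tested.

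ITGB2, the common beta chain of LFA-1 and Mac-1, had 346.9, 363.3 and 351.6 CPM in ERKi libraries against 636.4, 543.6 and 547.2 CPM in DMSO libraries. Every ERKi library lay below every DMSO library, at -0.7 on the log2 scale (SE 0.055, adjusted p = 5.54e-09) that was -0.63 without DMSO replicate 1. The antisense gene ITGB2-AS1, which shares 303 exon bases with it, stood at 2.13 CPM in ERKi and 7.06 CPM in DMSO libraries (log2 fold change -1.72, SE 0.21). Reads of the shared bases cannot be told apart without strand. ITGB1, the most widely used beta chain, had 259.4, 269.8 and 265 CPM in ERKi libraries against 274.5, 292.9 and 297.7 CPM in DMSO libraries. Its log2 fold change of -0.12 (SE 0.043, adjusted p = 0.0164) was small, and the call was lost without DMSO replicate 3 (adjusted p = 0.055) or ERKi replicate 1 (0.0508), with a filter on CPM (-0.09, 0.0548), with only the libraries compared (-0.13, 0.063) and with library totals as the only scaling (-0.04, 0.483).

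The alpha chains that pair with ITGB2 rose with ERKi while ITGB2 fell. ITGAL, the LFA-1 chain that binds ICAM1, had 281.8, 280.8 and 285.1 CPM in ERKi libraries against 180.3, 163 and 168.3 CPM in DMSO libraries. These groups did not overlap, and the log2 fold change was 0.73 (SE 0.045, adjusted p = 2.85e-10). ITGAM, the Mac-1 chain used as a marker of mature myeloid cells, had 5.353, 5.773 and 5.729 CPM in ERKi libraries against 1.45, 1.931 and 1.802 CPM in DMSO libraries. It rose 3.24-fold (log2 1.7, SE 0.18, adjusted p = 3.03e-07) and stayed scarce, with 113 to 125 counts in ERKi and 30 to 41 counts in DMSO libraries. ITGAX, a marker of dendritic cells and some monocytes, had 4.311, 2.91 and 4.145 CPM in ERKi libraries against 1.45, 1.884 and 1.28 CPM in DMSO libraries. The lowest ERKi library was still above the highest DMSO library, at 1.3 on the log2 scale (SE 0.23, adjusted p = 9.51e-05). In the same contrast 5 of 6 tested monocyte markers rose, among them LYZ, VCAN, CSF1R and S100A8, and CD14 fell, while FCN1 was not tested. The summed level of the 7 was 3780 to 3870 CPM in ERKi and 307 to 354 CPM in DMSO libraries. Granulocyte markers (ELANE, AZU1, PRTN3, CTSG, FCGR3B and CXCR2, of which 5 were tested) moved too: 4 rose with ERKi and 5 rose in Comb against DMSO. Their summed level was 3670 to 3810 CPM in Comb, 2800 to 2930 in ERKi, 1380 to 1410 in ABT199 and 1340 to 1690 in DMSO libraries. The part of both marker lists in the integrin values was not tested.

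The alpha chains that pair with ITGB1 rose by smaller amounts, apart from ITGA6. ITGA6, a laminin receptor chain, had 25.72, 24.11 and 26.04 CPM in ERKi libraries against 9.084, 10.08 and 10.29 CPM in DMSO libraries. These groups lay far apart too, and it rose 2.57-fold (log2 1.36, SE 0.079, adjusted p = 1.24e-10). ITGA5, the fibronectin receptor chain, had 263, 269 and 262.3 CPM in ERKi libraries against 222.2, 198.9 and 201.5 CPM in DMSO libraries, with no overlap and a log2 difference of 0.35 (SE 0.045, adjusted p = 2.62e-06). ITGA4, which pairs with ITGB1 or ITGB7, had 206.9, 210.8 and 208.5 CPM in ERKi libraries against 152.9, 184.1 and 192 CPM in DMSO libraries. Its log2 fold change of 0.24 (SE 0.064, adjusted p = 0.003) leaned on DMSO replicate 1, the lowest library, without which it was 0.14 (adjusted p = 0.00177).

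ICAM1, the ligand, stood just outside the threshold with ERKi. It had 5.874, 6.096 and 6.288 CPM in ERKi libraries against 3.866, 3.909 and 5.454 CPM in DMSO libraries. The groups did not overlap, but DMSO replicate 3 lay close to the ERKi libraries. The log2 fold change was 0.46 (SE 0.2, adjusted p = 0.0508), and it passed, among other settings, with DESeq2 (0.47, adjusted p = 0.0369), with limma-voom (0.48, 0.0232) and without DMSO replicate 3 (0.64, 0.0169).

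**Figure D2:**
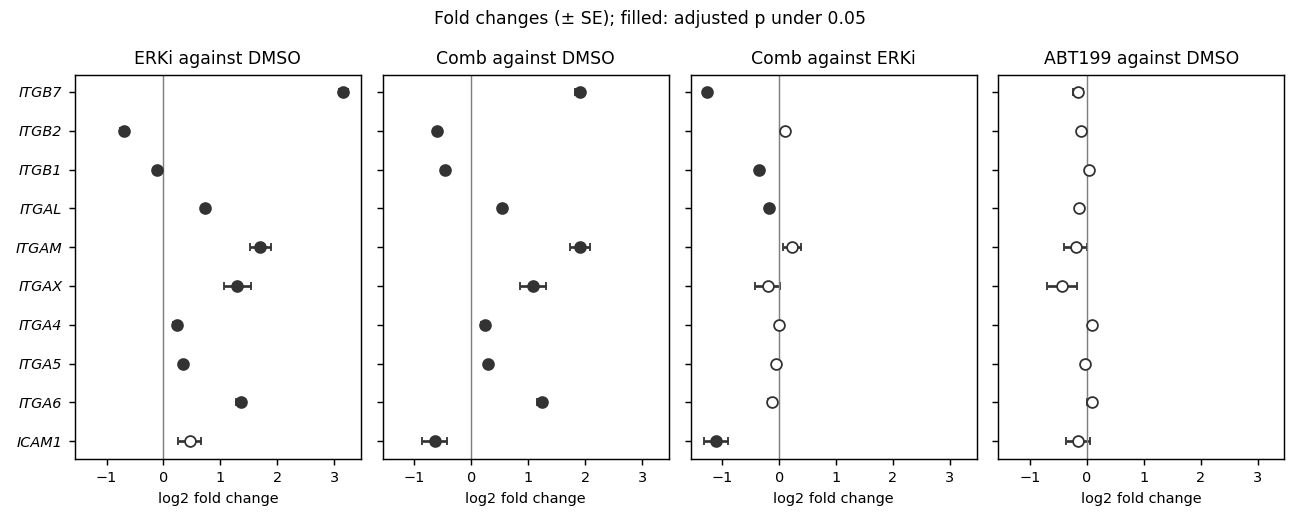
Log2 fold change (x axis) of each gene (rows) in 4 comparisons, with bars of ± 1 SE; filled points passed an adjusted p under 0.05. Most members lie to the right in both ERKi contrasts with DMSO, ITGB7 and ICAM1 lie to the left in Comb against ERKi, and none is filled in ABT199 against DMSO.

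ABT199 against DMSO asks what BCL2 inhibition alone does, and 0 of 10 members passed by edgeR's quasi-likelihood test, by DESeq2 or by limma-voom. At an unadjusted p under 0.05 there was 1, and 0.402% of all genes were called (0.0198% higher and 0.382% lower). That gene was ITGAL, at 159.9, 155.8 and 148.1 CPM in ABT199 libraries against 180.3, 163 and 168.3 CPM in DMSO libraries. Its groups did not overlap, as was so for 13.2% of all genes, and its log2 fold change was -0.14 (95% interval -0.24 to -0.04, adjusted p = 0.364). ITGB7 was at 9.084, 9.078 and 8.976 CPM in ABT199 libraries, within the range of the DMSO libraries, with a log2 fold change of -0.16 (95% interval -0.36 to 0.03). The intervals were narrow for abundant members, such as -0.05 to 0.13 for ITGB1 and -0.13 to 0.06 for ITGA5. They were wide for scarce ones, such as -0.99 to 0.11 for ITGAX and -0.6 to 0.28 for ICAM1.

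Comb against DMSO asks for the effect of both drugs, and all 10 members passed by edgeR, 7 higher and 3 lower, where 63.8% of all genes were called, 30.4% higher and 33.4% lower. No member's groups overlapped, as was so for 65.4% of all genes. The same split was found without DMSO replicate 1. The members' median was 0.42 and that of all genes -0.01. This comparison shares its DMSO libraries with the others, so the values are given side by side. ITGAM stood at 6.528, 6.933 and 6.129 CPM in Comb libraries and had the largest rise of the 10 (log2 1.91, SE 0.18, adjusted p = 9.66e-08). ITGB7, at 36.44, 39.87 and 37.09 CPM in Comb libraries, was close behind it (1.9, SE 0.08, adjusted p = 4.43e-12). The other rises were ITGA6 (log2 1.24), ITGAX (1.09), ITGAL (0.54), ITGA5 (0.3) and ITGA4 (0.24, and 0.14 without DMSO replicate 1).

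The 3 members that fell with the combination were ITGB2, ITGB1 and ICAM1. ITGB2 had 368.8, 392.8 and 376.9 CPM in Comb libraries, all below the DMSO libraries (log2 -0.6, SE 0.055, adjusted p = 5.89e-08). ITGB1 had 202.2, 206.5 and 216 CPM in Comb libraries, the lowest levels of this gene in the series (log2 -0.47, SE 0.043, adjusted p = 6.1e-08). ICAM1 had 1.923, 3.467 and 3.091 CPM in Comb libraries, from 38 to 64 counts each, and lay on the other side of DMSO from the ERKi libraries. Its log2 fold change of -0.64 (SE 0.22, adjusted p = 0.0157) did not pass once DMSO replicate 3 (-0.47, adjusted p = 0.0883) or Comb replicate 1 (-0.43, 0.086) was left out.

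Comb against ABT199 asks what ERKi adds to venetoclax and shares no library with ERKi against DMSO. It called 9 of 10 members by edgeR, 7 higher and 2 lower, where 66.2% of all genes were called, 32.1% higher and 34.2% lower. The groups of 9 members did not overlap, against 72.6% of all genes. Without DMSO replicate 1, ICAM1 was called lower as well (adjusted p = 0.0492). That library is in neither group of this contrast and acts through the shared fit: filter, scaling, spread and adjustment. ITGAM was 4.34-fold and ITGB7 4.18-fold higher in Comb than in ABT199 libraries (log2 2.12 with SE 0.19, and 2.06 with SE 0.082). ITGAX (1.53), ITGA6 (1.16), ITGAL (0.69) and ITGA5 (0.33) rose, and ITGB1 (-0.51) and ITGB2 (-0.49) fell. ITGA4 was at 0.16 (SE 0.064, adjusted p = 0.0342), a call lost without ABT199 replicate 1 (0.106) or 2 (0.116), ERKi replicate 1 (0.0548) or Comb replicate 1 (0.0696), 2 (0.0573) or 3 (0.105). ICAM1, at 1.923 to 3.467 CPM in Comb and 3.194 to 4.735 CPM in ABT199 libraries, did not pass (-0.48, SE 0.22, adjusted p = 0.0614). With a library left out its value ran from -0.66 to -0.27, and besides DMSO replicate 1 it passed without DMSO replicate 3 (-0.49, 0.0472), ABT199 replicate 1 (-0.62, 0.0303) or Comb replicate 2 (-0.66, 0.0262).

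Comb against ERKi asks what venetoclax adds to ERK inhibition, and 4 of 10 members were lower and 0 higher by edgeR, where 50.9% of all genes were called, 26.5% higher and 24.3% lower. DESeq2 and limma-voom also gave 4 lower and 0 higher. With library totals as the only scaling, 6 were lower and 0 higher, and the calls over all genes split into 2763 higher and 5181 lower, against 4023 and 3694 with TMM. The groups of 7 members did not overlap, against 60.9% of all genes. Without DMSO replicate 1, which enters only through the shared fit, ITGB2 was also called, as higher (log2 0.1, adjusted p = 0.00732). ITGB7 had 36.44, 39.87 and 37.09 CPM in Comb libraries against 84.94, 93.66 and 92.68 CPM in ERKi libraries. The groups were well apart at -1.26 on the log2 scale (SE 0.068, adjusted p = 8.26e-10), and only 3.06% of the genes had a lower value. ZNF740, which overlaps it, was at -0.04 (SE 0.049, adjusted p = 0.484) here. ICAM1, with 1.923, 3.467 and 3.091 CPM in Comb libraries against 5.874, 6.096 and 6.288 CPM in ERKi libraries, was at -1.11 (SE 0.21, adjusted p = 0.000388). This call held in each fit that left out a library, with values of -1.29 to -0.9. ITGB1 (-0.35, SE 0.043, adjusted p = 5.83e-06) and ITGAL (-0.18, SE 0.045, adjusted p = 0.00267) were lower by less.

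The other 6 members did not pass between Comb and ERKi in the main edgeR fit. With only the libraries compared, ITGB2 was called higher (log2 0.09, adjusted p = 0.0333 by edgeR). The log2 difference was 0 for ITGA4 (95% interval -0.14 to 0.13), -0.05 for ITGA5 (-0.15 to 0.04) and -0.13 for ITGA6 (-0.28 to 0.03). It was 0.22 for ITGAM (-0.13 to 0.56), -0.2 for ITGAX (-0.66 to 0.26) and 0.1 for ITGB2 (-0.02 to 0.22). The intervals of ITGAM and ITGAX are wide, so these data do not show that they stayed level.

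The interaction asks whether the combination departed from the sum of the effects of both single drugs on the log2 scale, and it was called for 4 of 10 members by edgeR, where 39.2% of all genes were called, 21.3% higher and 18% lower. With library totals as the only scaling the calls over all genes split into 2334 higher and 3765 lower, against 3227 and 2724 with TMM. Without DMSO replicate 1 the count was again 4. For ITGB7 the sum of the single effects was 2.99 and the combination gave 1.9, an interaction of -1.1 (SE 0.11, adjusted p = 3.05e-06). For ICAM1 the sum was 0.3 and the combination gave -0.64, an interaction of -0.95 (SE 0.3, adjusted p = 0.0186) that lost its call without ABT199 replicate 3 (-0.79, adjusted p = 0.0578). For ITGB1 the sum was -0.08 and the combination gave -0.47, an interaction of -0.39 (SE 0.06, adjusted p = 0.000122). ITGB2 lay above its sum of -0.81, by 0.21 (SE 0.077, adjusted p = 0.0421), a call lost in 7 of the 12 fits that left out a library and with library totals as the only scaling (0.1, adjusted p = 0.282). Without DMSO replicate 1 the ITGB2 value was 0.13 (adjusted p = 0.025). The other 6 members lay between -0.2 (ITGA6) and 0.42 (ITGAM) from the sum and did not pass, although ITGA6 did with library totals as the only scaling (-0.31, adjusted p = 0.0422).

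**Figure D3:**
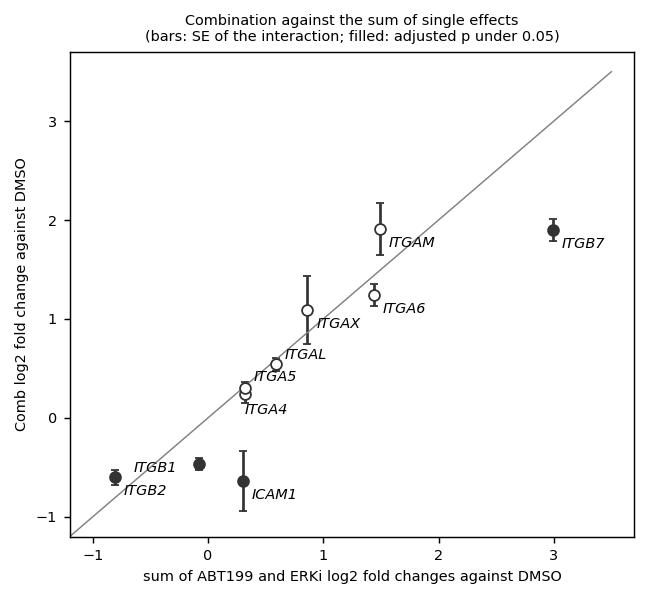
Log2 fold change of Comb against DMSO (y axis) over the sum of the ABT199 and ERKi log2 fold changes (x axis) for each gene; the line marks equality, bars are ± 1 SE of the interaction and filled points passed an adjusted p under 0.05. ITGB7, ICAM1 and ITGB1 lie below the line and ITGB2 a little above it.

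Ratios of members within a library need no scaling between libraries, and they show how the balance of partner transcripts moved. Counts per kb of exon of ITGB7 over those of ITGB1, the rival beta chains of ITGA4, gave 0.449, 0.476 and 0.479 in ERKi libraries against 0.0553, 0.0408 and 0.0489 in DMSO libraries. In Comb libraries the ratio was 0.247, 0.265 and 0.235, between the ERKi libraries and the rest, and in ABT199 libraries it was 0.0421, 0.0414 and 0.0416. ITGB7 made up 7.55% of the 3 beta chains per kb in Comb, 15.8% in ERKi, 1.36% in ABT199 and 1.46% in DMSO libraries. What the 1886 exon bases shared with ZNF740 do to the size of the ITGB7 ratios and shares was not tested. The share of ITGB2 was 62.1% in Comb, 50.6% in ERKi, 65.9% in ABT199 and 68% in DMSO libraries, so ITGB2 stayed the main beta chain in each group.

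The 3 ITGB2 partners together (ITGAL, ITGAM and ITGAX) came to 0.564, 0.535 and 0.564 of ITGB2 per kb in ERKi libraries against 0.193, 0.206 and 0.21 in DMSO libraries. The ratio averaged 0.458 in Comb and 0.198 in ABT199 libraries. Nearly all of this sum was ITGAL, which was 34.7 ± 1.9 times ITGAM per kb in Comb and 45.8 ± 1.9 times in ERKi libraries (mean ± SD, n = 3). It was 97.8 ± 24 times ITGAM in ABT199 and 91.7 ± 19 times in DMSO libraries, and these last groups overlapped. The sum of ITGA4, ITGA5 and ITGA6 over ITGB1 averaged 2.01 in Comb, 1.62 in ERKi, 1.16 in ABT199 and 1.18 in DMSO libraries. Of 8 comparisons of these ratios (ERKi against DMSO and Comb against ERKi for 4 ratios), none had overlapping groups. The two-sided exact permutation p was 0.1 for each (adjusted 0.1), the smallest that 3 against 3 libraries allow. The size of a ratio depends on the exon model: with all GENCODE transcripts the ITGB2 partners averaged 0.868 of ITGB2 in ERKi and 0.318 in DMSO libraries.

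**Figure D4:**
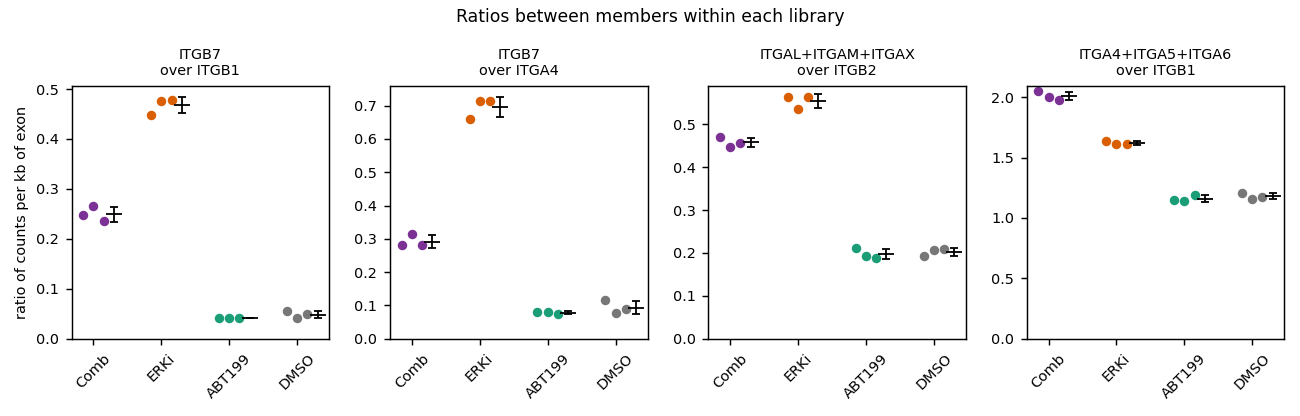
Ratio of counts per kb of exon between members within each library (y axis, from 0), with the 4 groups along the x axis; points are libraries and the bar beside them is the mean ± SD (n = 3). ITGB7 over ITGB1 is near 0.47 in ERKi, 0.25 in Comb and under 0.06 in ABT199 and DMSO libraries.

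Other integrin genes were listed apart from the members, and their counts are to be read against the 69.7% of all genes called in ERKi against DMSO and 50.9% in Comb against ERKi. Of 17 such genes 13 were tested, and with ERKi 3 rose and 3 fell (edgeR; 4 and 3 without DMSO replicate 1), with a median log2 fold change of -0.18. ITGA7, a laminin receptor chain, rose to 74.18 ± 5.99 CPM in ERKi libraries against 16.03 ± 1.51 CPM in DMSO libraries (SD, n = 3; log2 2.21). ITGB5, a partner of ITGAV, fell to 3.279 CPM in ERKi against 19.73 CPM in DMSO libraries (log2 -2.59), and ITGA1, a collagen receptor chain, fell as well (-1.52). ITGAE, the other alpha partner of ITGB7, was at 18.25 CPM in ERKi and 14.96 CPM in DMSO libraries (log2 0.29, adjusted p = 0.01). In Comb against ERKi 1 rose and 6 fell, with ITGA1 at 0.26, ITGB5 at -0.9 and ITGAV at -0.74 (3 and 7 without DMSO replicate 1).

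Among 16 other ligands, 11 were tested, and 7 rose and 1 fell with ERKi (of all genes 34.5% were higher and 35.2% lower), with a median of 0.88, against 0.01 for all genes. Of the 7, ICAM2 (log2 0.88, 14 to 49 counts a library), JAM2 (7 to 24 counts) and SPP1 (0 to 14 counts) were scarce. F11R (JAM-A), a junction protein that binds LFA-1, rose to 67.81 CPM in ERKi against 13.36 CPM in DMSO libraries (log2 2.34). THBS1 rose by 1.45 (SE 0.49) and CD47 by 0.51, while ICAM3 was at 0.3 (adjusted p = 0.00825). VCAM1 and MADCAM1, the ligands of the ITGA4 integrins, held at most 4 and 7 counts in any library and were not tested. In Comb against ERKi 0 rose and 6 fell, with a median of -0.69. These 6 included the matrix genes THBS1 (-4.91) and TNC (-4.67), at 0.3161 and 0.1566 CPM in Comb libraries against 9.635 and 4.161 CPM in ERKi libraries. The summed level of the fibroblast markers given above was lowest in the same Comb libraries. PDGFRB, unlike COL1A1, COL1A2 and COL3A1, was not lowest there, at 0.961 CPM in Comb, 0.9947 in ERKi and 0.6782 in DMSO libraries. The part of these markers in these falls was not tested. F11R (-0.52) and CD47 (-0.51) fell by less.

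Genes that act on integrins from inside the cell were split. Of 14 tested activation genes 5 rose and 4 fell with ERKi (median 0.07; 7 and 4 without DMSO replicate 1). The adaptors FYB1 (log2 1.45) and APBB1IP (RIAM, 0.73) rose and FERMT1 (kindlin-1) fell (-2.2). TLN1, the talin that binds beta chain tails, was at 570.2 CPM in ERKi and 549.7 CPM in DMSO libraries (0.05, adjusted p = 0.229), and FERMT3, the kindlin of blood cells, at 143.3 CPM in ERKi and 130 CPM in DMSO libraries (0.14, adjusted p = 0.0605). Of 8 tested genes that restrain integrins 6 rose and 1 fell (median 0.32, where 69.7% of all genes were called), among them RAP1GAP2, which switches off RAP1 (1.68), RASA3 (0.65) and the filamin FLNA (0.6). In Comb against ERKi FYB1 (-0.66), APBB1IP (-0.54) and RAP1GAP2 (-0.6) were lower and FERMT1 (0.89), RASA3 (0.49) and the integrin inhibitor SHARPIN (0.26) higher.

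Of 23 tested outside-in signalling genes 10 rose and 7 fell with ERKi (median 0.19). PARVG, the parvin of blood cells, rose by 0.96 on the log2 scale, and the docking protein BCAR1 fell by 2.04. In Comb against ERKi 5 rose and 8 fell, with SYK at 0.41 and VAV3 at -0.57. Of 10 tested surface partners 4 rose and 4 fell with ERKi (median -0.08), with the selectin ligand SELPLG at 1.16, PLAUR, the urokinase receptor, at -1.07 and the tetraspanin CD81 at -0.43. In Comb against ERKi CD44 (-0.37), SELPLG (-0.35) and FCGR2A (-0.3) were among the 4 that fell, and 2 rose.

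**Figure D5:**
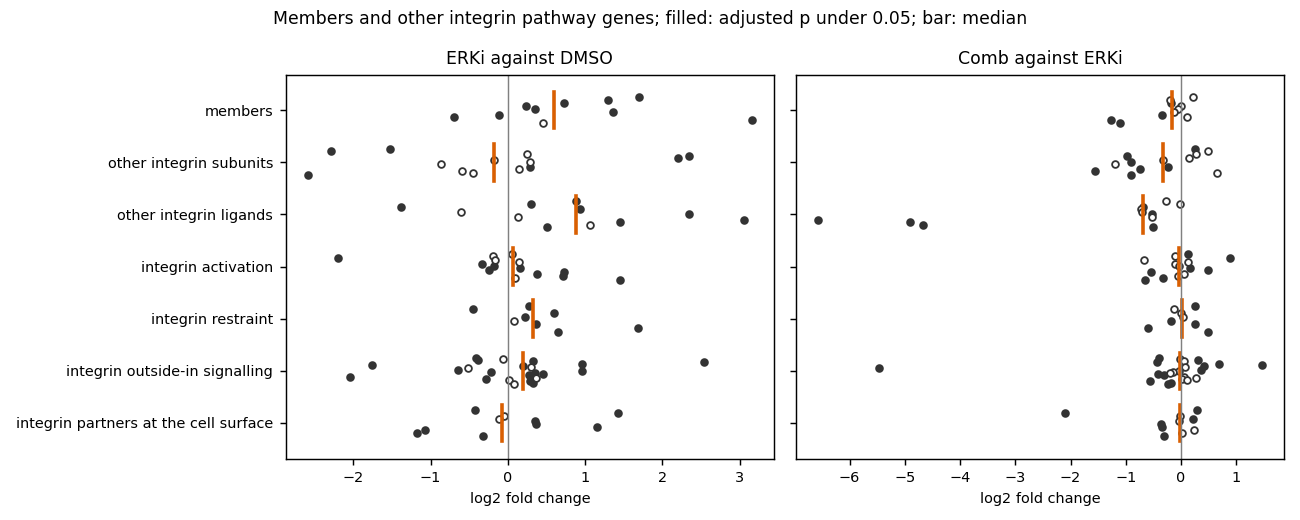
Log2 fold change (x axis) of the 10 members and of 6 lists of other integrin genes (rows) for ERKi against DMSO and Comb against ERKi; each point is a tested gene, filled where the adjusted p was under 0.05, and the bar is the median. With ERKi the medians are 0.6 for the members and 0.88 for the other ligands, and in Comb against ERKi they are -0.16 and -0.69.

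For each member up to 2 protein-coding genes are given with the nearest 3 log2 fold changes against DMSO, among 9571 genes with a mean of at least 5 CPM. The measure was the Euclidean distance over the 3 contrasts, which share the DMSO libraries. The nearest to ITGB7 were BMF, a BH3-only death gene, at a distance of 0.19, and NFE2, a transcription factor of blood cells, at 0.23. The nearest to ITGAM were SIRPB2 (0.13) and LTC4S (0.16), and to ICAM1 WDR19 (0.16) and PPFIBP1 (0.18). ITGAL lay by TMEM219 (0.0095) and ANKZF1 (0.048), ITGB2 by CHRAC1 (0.037), and ITGB1 by GPD2 (0.018) and TMEM161B (0.034). ITGAX lay by ST6GALNAC5 (0.13) and TMEM38A (0.14), ITGA6 by AGTPBP1 (0.055) and CDC14B (0.11), ITGA4 by TRMT44 (0.016) and RPL41 (0.026), and ITGA5 by ZNF782 (0.027) and CCDC142 (0.028).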

How the data were processed

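Poly(A) RNA of 12 OCI-AML3 libraries was sequenced as paired ends, per the labels' protocols. The deposited table holds raw read counts per gene symbol, made by the authors with HISAT2, HTSeq and DESeq2 named for the hg38 build, per the submitters' processing notes. Versions, annotation release and strand setting: not given in the sources used here. All rows named a gene.

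The members, gene lists and tests were chosen with earlier results of these data known. Counts were fitted with edgeR 4.0.16 (R 4.3.3): filterByExpr (minimum count 10, minimum total 15), TMM factors, 1 coefficient per group, 8 residual degrees of freedom, a prior count of 0.125, the quasi-likelihood test and Benjamini-Hochberg adjustment over 15173 genes at 0.05. The common biological coefficient of variation was 0.073. TMM takes most genes as unchanged. Each SE is the log2 fold change over the square root of F, and 95% intervals use the fit's total degrees of freedom. Every pair of libraries within a group differed by more than sampling noise. Positions and exon lengths are from GENCODE 29 (GRCh38) and promoters from RefSeq. Named genes beyond the members were the called genes of each list with a mean of at least 5 CPM and the largest changes (up to 3 per list in ERKi against DMSO and Comb against ERKi), nearest neighbours and overlapping genes. ITGAE, ICAM2, ICAM3, JAM2, SPP1, TNC, FN1, VCAM1, MADCAM1, TLN1 and FERMT3 were named after their values were seen. The fit was also run on simulated counts in which 200 genes were changed, in the ERKi group only. In the real data 10578 genes were called in ERKi against DMSO, so the simulation does not cover data with that many changes. Alternatives were RLE factors, DESeq2 1.42.0, limma-voom 3.58.1, other filters, a replicate block, only the libraries compared, each library left out and, added after seeing the data, library totals as the only scaling. Ratios were tested with scipy 1.17.1 and figures drawn with matplotlib 3.10.9. A few genes that the rule would name are not reported here.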

Additional observations from a re-analysis of the deposited data

Results flagged for a closer look

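The effect of venetoclax differed with and without ERKi for 4 of 10 members, by the interaction term of the edgeR fit, where 39.2% of all genes were called. ITGB7 was at -1.1 on the log2 scale (adjusted p = 3.05e-06): it was lower in Comb than in ERKi libraries and did not pass between ABT199 and DMSO libraries. ICAM1 was at -0.95 (adjusted p = 0.0186) and ITGB1 at -0.39 (adjusted p = 0.000122), in the same direction, but the ICAM1 call was lost without ABT199 replicate 3 (0.0578). ITGB2 was at 0.21 (adjusted p = 0.0421), in the other direction, a call lost in 7 of the 12 fits that left out a library, with the replicate block (0.0584), with a filter on CPM (0.0505) and with library totals as the only scaling (0.282). The causes were not tested.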

How the results depend on the processing

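The number of members called kept within 1.5 times of its value in each comparison and alternative, except for the interaction, where leaving out a library gave 2 to 4 (2 without ABT199 replicate 3). Leaving out a library gave 0 members in ABT199 against DMSO, 8 to 10 in ERKi against DMSO, 9 to 10 in Comb against DMSO, 8 to 10 in Comb against ABT199 and 4 to 5 in Comb against ERKi. Genes called over the whole table in ABT199 against DMSO were 61, but 242 without a filter, 33 with only the libraries compared and 33 to 98 with a library left out. Differences near 0 changed sign: ITGA4 in Comb against ERKi was at 0.01 with RLE factors and DESeq2, 0.03 without a filter and -0.03 to 0.01 with a library left out, and the ITGA5 interaction was at 0.01 without a filter and -0.07 to 0.01 with a library left out. With a library left out, ABT199 against DMSO ran from -0.02 to 0.14 for ITGA4, -0.06 to 0.02 for ITGA5 and -0.31 to 0.02 for ICAM1, and the ITGA4 interaction from -0.14 to 0.02. With library totals as the only scaling the median of all genes in Comb against ERKi moved to -0.13. ITGB2 was then at -0.02 there, and ITGA5 (-0.18) and ITGA6 (-0.25) were called lower. Same-numbered libraries did not deviate together over all genes (correlations of -0.074 to 0.094 over 18 pairs). This shows no large shared shift, but it cannot exclude that the numbers pair the libraries. With the replicate block 3 members kept the interaction, ITGB2 losing it (adjusted p = 0.0584), and ICAM1 passed in ERKi against DMSO (0.0238) and Comb against ABT199 (0.0344). At 16 to 135 counts per library, ITGAM, ITGAX and ICAM1 were measured least precisely. Counts over the 6 lists stayed within 1.5 times without DMSO replicate 1.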
